A study of Saccharomyces cerevisiae with 24 samples.

Results

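The response of wild type budding yeast (Saccharomyces cerevisiae) to methyl methanesulfonate (MMS) was described across all measured genes. It was read from 6 of the 24 libraries of the study, chosen by their titles: 3 of wild type cells exposed to 0.1% MMS for 1 h and 3 of untreated wild type cells, stated to be biological replicates. All strains are haploid BY4741 of mating type MATa, a laboratory strain that carries deletions in HIS3, LEU2, MET17 and URA3, and all were grown in YPD, a rich medium with glucose, to mid-log density. The other 18 libraries hold gcn2Δ, gcn4Δ and mbf1Δ cells with and without the same MMS exposure. They shared the estimate of the spread between replicates, and their MMS responses were used for 1 comparison with wild type. The study as a whole asks how far the MMS response needs the kinase Gcn2, the transcription factor Gcn4 and its coactivator Mbf1.

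The wild type libraries held 13514614 to 17813635 estimated counts, and 5821 genes passed the filter on low counts. Genes whose models hold ribosomal RNA sequence took 16.1 to 17.9% of the counts in MMS-treated cells and 11.6 to 18.6% in untreated cells. Untreated replicate 3 stood apart from the other two untreated libraries. A chi-square statistic of its counts against theirs was 93.7 per gene in each case, whereas untreated replicates 1 and 2 differed by 7.27 per gene and the MMS-treated libraries by 4.34 to 9.28. The markers went with the labels. The 6 markers of MATa cells summed to 3137 to 3298 TPM (a level per length of the gene, scaled to one sum in every library) with MMS and to 3028 to 3168 TPM without it, against 81.1 to 89.8 TPM and 25.3 to 31.1 TPM for the 4 markers of the other mating type, of which SAG1 was the most abundant. The 5 markers of diploid or meiotic cells summed to 76.1 to 79.3 TPM with MMS and to 33.9 to 43.0 TPM without it. MET17 and URA3 were listed at 0 in all 6 libraries and LEU2 stayed under 1 TPM. HIS3 had 209 to 223 TPM with MMS and 51.0 to 62.8 TPM without it, and whether these reads come from sequence that the deletion leaves in place was not tested.

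MMS transfers methyl groups to DNA, where the damaged bases are removed by base excision repair and block replication forks, and to RNA, where they can stall ribosomes. Budding yeast meets many stresses with one broad program: genes for protective enzymes and reserve carbohydrates are induced through the related zinc finger factors Msn2 and Msn4, while genes for ribosomal proteins and for ribosome assembly are turned down. DNA damage adds a checkpoint, in which the kinases Mec1 and Rad53 act through Dun1 to raise ribonucleotide reductase, the source of deoxynucleotides. Stalled or collided ribosomes activate Gcn2, which phosphorylates the initiation factor eIF2, and translation of Gcn4, the activator of amino acid synthesis, then rises.

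Promoters with known short motifs are shown first, for genes picked because they hold a motif and changed much. They are examples and do not show that such genes share a motif. Only the motif of a set is marked, and a stretch can hold others. The 210 bases that lie 300 to 91 bases before the start codon are printed 5′ to 3′ on the strand of the gene, from the RefSeq R64 genome. Each set holds the 3 genes with the largest change, among those described below, that carry the motif in that stretch. In the first set, capitals mark the core of the stress response element bound by Msn2 and Msn4, AGGGG, or its complement on the other strand.
DDR2, chrXV:231846-232055, minus strand: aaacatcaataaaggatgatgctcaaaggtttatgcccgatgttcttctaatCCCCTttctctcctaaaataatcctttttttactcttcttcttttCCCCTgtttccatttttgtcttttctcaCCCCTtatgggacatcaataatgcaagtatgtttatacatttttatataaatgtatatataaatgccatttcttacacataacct
TSA2, chrIV:1365753-1365962, minus strand: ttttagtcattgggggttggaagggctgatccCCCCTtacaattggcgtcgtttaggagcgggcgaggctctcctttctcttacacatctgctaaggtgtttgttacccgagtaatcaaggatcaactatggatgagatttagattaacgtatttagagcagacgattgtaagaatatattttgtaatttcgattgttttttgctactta
PGM2, chrXIII:477697-477906, minus strand: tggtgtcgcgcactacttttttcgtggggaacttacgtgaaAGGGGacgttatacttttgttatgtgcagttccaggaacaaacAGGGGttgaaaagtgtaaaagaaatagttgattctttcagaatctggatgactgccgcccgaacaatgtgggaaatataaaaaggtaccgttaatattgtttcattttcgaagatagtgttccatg
DDR2 encodes a small stress protein, TSA2 a cytosolic peroxiredoxin and PGM2 the main phosphoglucomutase. DDR2 had 222, 209 and 234 CPM (counts scaled by TMM to one library size) in MMS-treated cells, against 3.40, 3.12 and 2.03 CPM in untreated cells. TSA2 had 296, 314 and 323 CPM against 7.10, 10.1 and 7.65 CPM. PGM2 had 1070.2, 1059 and 1045 CPM against 30.3, 48.1 and 24.9 CPM. All 3 were far higher in every MMS-treated library.

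In the second set, capitals mark TGACTC, the core of the site bound by Gcn4, on either strand. The stretch of TMT1 includes 14 bases of a neighbouring reading frame, YER175W-A.
RTC2, chrII:536275-536484, plus strand: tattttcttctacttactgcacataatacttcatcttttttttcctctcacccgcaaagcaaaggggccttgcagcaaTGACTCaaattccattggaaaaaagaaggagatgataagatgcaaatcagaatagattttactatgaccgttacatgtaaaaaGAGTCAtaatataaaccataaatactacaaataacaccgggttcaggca
TMT1, chrV:540454-540663, minus strand: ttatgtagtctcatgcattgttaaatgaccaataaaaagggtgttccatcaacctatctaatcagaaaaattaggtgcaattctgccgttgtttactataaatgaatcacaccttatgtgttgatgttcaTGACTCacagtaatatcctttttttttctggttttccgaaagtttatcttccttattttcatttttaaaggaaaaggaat
ARG4, chrVIII:141493-141702, minus strand: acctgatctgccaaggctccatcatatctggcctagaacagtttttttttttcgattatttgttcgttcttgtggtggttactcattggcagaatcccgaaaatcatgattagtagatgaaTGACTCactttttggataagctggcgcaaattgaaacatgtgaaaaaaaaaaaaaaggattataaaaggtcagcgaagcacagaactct
RTC2 encodes a vacuolar transporter of cationic amino acids, TMT1 a methyltransferase of trans-aconitate and ARG4 the last enzyme of arginine synthesis. ARG4 had 1676, 1698 and 1667 CPM with MMS, against 67.8, 63.3 and 62.7 CPM without it. TMT1 had 506, 543 and 533 CPM against 19.3, 16.7 and 19.2 CPM. The replicates of each gene lay within a narrow band beside the difference between the groups, and ARG4 rose by 4.70 ± 0.06 on the log2 scale (estimate ± SE, edgeR's quasi-likelihood test, adjusted p = 3.98e-24).

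In the third set, capitals mark PAC (GATGAG) and RRPE (AAATTTT), paired elements of ribosome assembly genes, on either strand. Where matches overlap, the capitals run on.
URA7, chrII:145819-146028, minus strand: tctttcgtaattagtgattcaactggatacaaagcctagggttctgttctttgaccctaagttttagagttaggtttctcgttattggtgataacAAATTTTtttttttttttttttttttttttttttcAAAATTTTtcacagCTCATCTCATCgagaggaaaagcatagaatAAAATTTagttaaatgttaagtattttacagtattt
CGR1, chrVII:439763-439972, plus strand: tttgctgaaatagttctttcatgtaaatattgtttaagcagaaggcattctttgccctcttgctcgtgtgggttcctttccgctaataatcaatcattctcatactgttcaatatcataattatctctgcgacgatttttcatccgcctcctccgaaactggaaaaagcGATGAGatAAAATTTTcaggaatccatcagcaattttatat
HAS1, chrXIII:851682-851891, minus strand: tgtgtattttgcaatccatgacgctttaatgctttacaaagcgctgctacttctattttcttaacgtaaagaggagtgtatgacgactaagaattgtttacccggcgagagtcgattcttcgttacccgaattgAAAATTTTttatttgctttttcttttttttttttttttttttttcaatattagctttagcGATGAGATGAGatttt
URA7 encodes the main CTP synthase, CGR1 a protein of large subunit assembly and HAS1 an RNA helicase of both subunits. URA7 had 8.03, 7.18 and 9.79 CPM in MMS-treated cells and 476, 469 and 451 CPM in untreated cells. HAS1 had 11.3, 12.0 and 11.6 CPM against 351, 353 and 369 CPM. CGR1 had 0.969, 0.780 and 0.457 CPM against 26.5, 20.04 and 22.5 CPM. The groups were far apart in all 3 genes.

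Over all genes the share of promoters with these motifs differed between bins of the change. The stress response element AGGGG was found within 300 bases of the start codon, on either strand, in 22.6% of 5807 promoters. It stood in 38.9% of the promoters of 1155 genes at least 2-fold higher with MMS and in 14.6% of those of 1251 genes at least 2-fold lower. Among the 55 genes with a log2 change of 4 or more the share was 72.7%. PAC was in 18.5% of all promoters, in 34.4% of those at least 2-fold lower and in 75.5% of the 98 genes with a log2 change below -4. RRPE was in 24.9% of all promoters, in 46.0% of those at least 2-fold lower and in 78.6% of that lowest bin. Both stood together in 7.70% of all promoters, in 35.9% of the promoters of genes at least 4-fold lower and in 2.25% of those at least 2-fold higher. The Gcn4 core was in 7.96% of all promoters and in 11.7% of those at least 2-fold higher, and it did not climb steadily, with 14.3% of promoters at log2 changes of 2 to 4 and 10.9% in the highest bin. Cores for Hsf1 (GAANNTTC), Rpn4 (TGGCAAA), Yap1 (TTACTAA) and Pho4 (CACGTG) were in 9.96, 9.09, 9.09 and 3.64% of the promoters at least 2-fold higher, against 11.7, 7.30, 7.96 and 3.63% of all promoters. The cell cycle boxes MCB (ACGCGT) and SCB (CGCGAAA) were in 3.38 and 1.82% of the promoters at least 2-fold higher, against 3.60 and 4.06% of all. RRPE overlaps its own complement, and the other cores searched do not contain each other. These counts of letters are descriptions and were not tested.

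**Figure D1:**
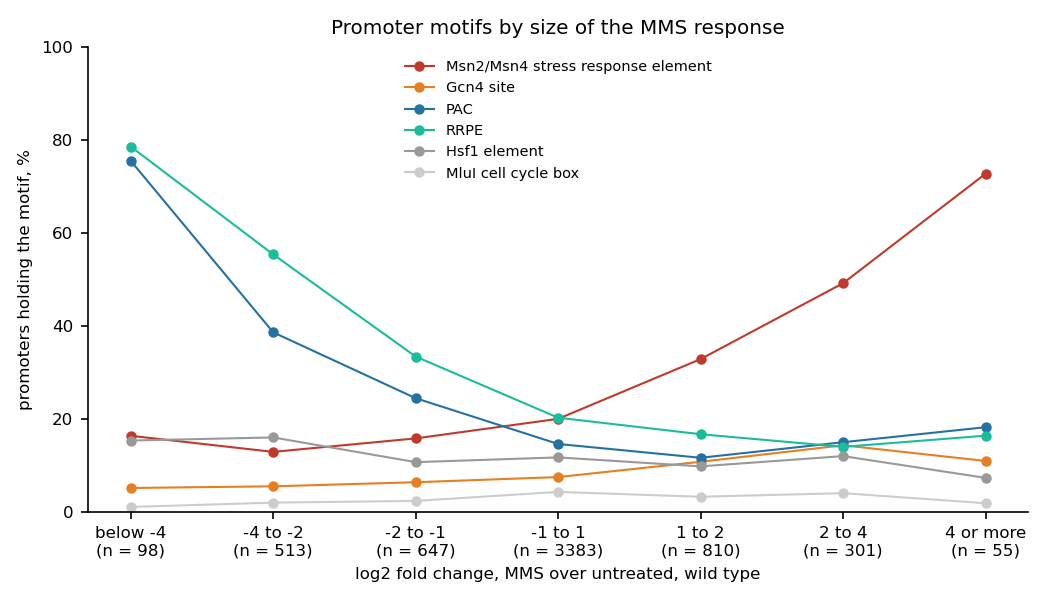
Share of promoters, in percent, that hold a motif core within 300 bases before the start codon, by bin of the log2 fold change of MMS-treated over untreated wild type cells. The line of the stress response element climbs to 72.7% in the highest bin, those of PAC and RRPE climb to 75.5 and 78.6% in the lowest bin, and those of the Hsf1 element and the MluI box stay low throughout.

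Most genes changed. Of 5821 genes, 4839 (83.1%) passed an adjusted p under 0.05 in edgeR's quasi-likelihood test, 2442 higher (42%) and 2397 lower (41.2%) with MMS. At least 2-fold changes were called for 1155 genes higher (19.8%) and 1255 lower (21.6%), and at least 4-fold changes for 351 higher (6.03%) and 610 lower (10.5%). On the TMM scale the tail of falls was the longer one, with 97 genes more than 16-fold lower and 53 more than 16-fold higher. The libraries of both groups did not overlap for 4882 genes (83.9%). Fold changes are relative to the TMM scaling, which put the median gene at 0.02 on the log2 scale. On the TPM scale, whose values sum to the same total in every library, limma called 3396 genes higher and 1361 lower and the median gene moved by 0.51, so changes smaller than about that size have no fixed direction. At least 2-fold changes were called there for 1909 genes higher and 786 lower, so the direction with more large changes depends on the scale. List medians that are below 0 on the TMM scale and above 0 on the TPM scale are those of hexose transport, the pentose phosphate pathway, ATP synthase, the mitochondrial ribosome, phospholipids, DNA replication, the cell wall, entry to the endoplasmic reticulum, the vacuolar ATPase, collided ribosomes, mRNA decay, one-carbon metabolism and phosphate (13 of 63 lists). Bulk libraries give relative levels, and less RNA per cell and fewer cells of a kind cannot be told apart. Without untreated replicate 3, 2386 genes were called higher and 2340 lower. Counts of list members called below are to be read beside the shares of all genes, 42% higher and 41.2% lower.

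The make-up of the messenger pool changed with it. The genes of cytosolic ribosomal proteins took 6.13, 6.22 and 6.24% of the summed TPM (without genes holding ribosomal RNA) in MMS-treated cells, against 26.8, 26.6 and 30.4% in untreated cells. The groups were far apart, and the mean fell to 6.19% ± 0.06 with MMS, against 27.9% ± 2.1 without it (SD, n = 3 each, two-sided exact permutation test p = 0.1, the smallest value that 3 libraries a group allow). Without untreated replicate 3 the untreated share was 26.7%. Genes for ribosome assembly took 0.162, 0.156 and 0.163% against 1.06, 1.02 and 1.11%. The space was taken up by many genes: 284 to 294 genes made up 50% of the pool in MMS-treated libraries, against 134 to 151 in untreated ones. Of the 100 most abundant genes of each group, 36 were shared.

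Glycolytic messengers stayed at the top in both groups, led by TDH3 with 2.55% ± 0.09 of the pool in MMS-treated cells and 2.76% ± 0.41 in untreated cells (TDH3 and TDH2 are near-identical copies, so reads could be split between them). Below it, the order changed. SED1, a stress-induced cell wall protein, ranked 3 with MMS and 53 without it. SPO24, a small protein known from sporulation, ranked 10 with MMS and 642 without it, and SSU1, the plasma membrane pump that exports sulfite, ranked 22 and 1051. SPO24 had 1907, 1819 and 2018 CPM with MMS, against 102.1, 98.9 and 89.0 CPM without it. SSU1 (YPL092W, chrXVI:373793-375169 on the plus strand) had 3889, 3576 and 3871 CPM against 169.8, 179.7 and 135 CPM, a rise of 4.55 ± 0.14 on the log2 scale. The peroxiredoxins TSA1 and AHP1 ranked 9 and 12 with MMS and 64 and 120 without it. The other arrivals among the 25 most abundant genes included TRX2 (a thioredoxin), NCE102 (an eisosome protein), FIT2 (a cell wall mannoprotein that holds iron-siderophores), PEP4 (vacuolar proteinase A), YHB1 (flavohemoglobin) and GLK1 (glucokinase), which ranked 16, 14, 17, 21, 24 and 25 with MMS and 266, 197, 284, 296, 305 and 917 without it.

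**Figure D2:**
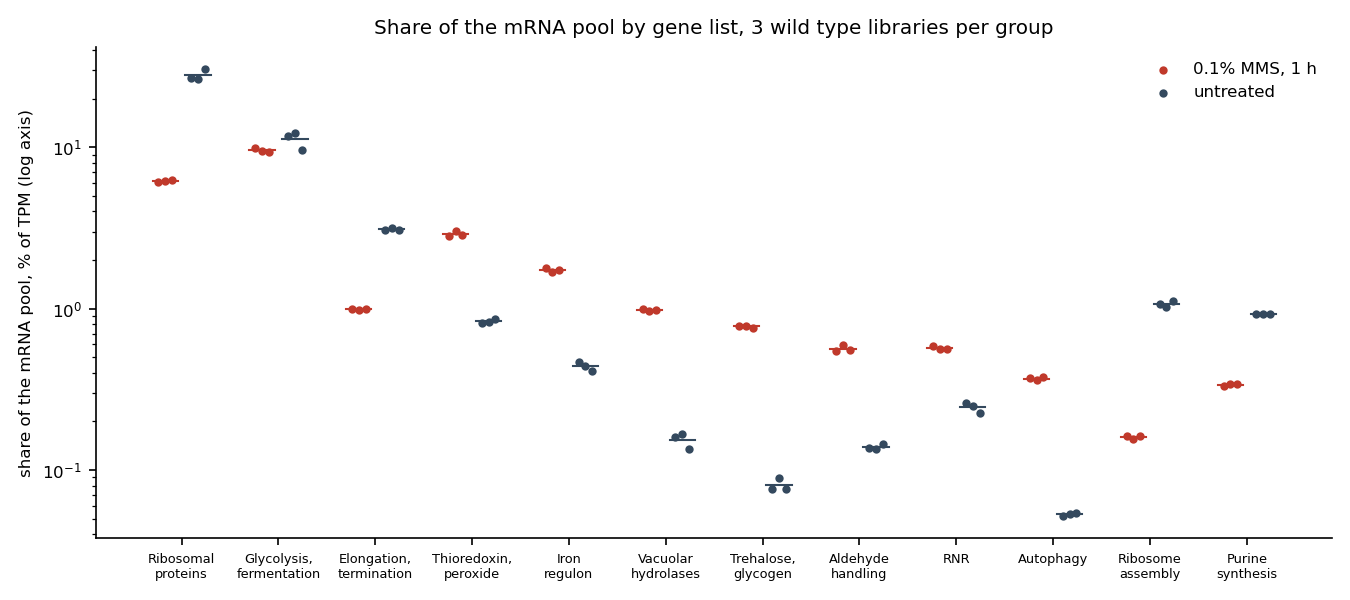
Share of the mRNA pool, as percent of the summed TPM on a log axis, taken by 12 gene lists in each of 3 MMS-treated and 3 untreated wild type libraries (points) with their means (bars). Ribosomal proteins sit near 6.19% with MMS and 27.9% without it, while the trehalose and glycogen list sits near 0.775% with MMS and 0.0804% without it.

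Reserve carbohydrate genes rose as a group. All 7 trehalose genes rose at least 2-fold, with a median log2 change of 2.27. TSL1, a regulatory subunit of trehalose synthase, led them with 1319, 1234 and 1214 CPM in MMS-treated cells, against 45.2, 73.4 and 45.1 CPM in untreated cells. Its partners rose too: the synthase TPS1 by 3.01 ± 0.09, the phosphatase TPS2 by 1.91 ± 0.16 and the second regulatory subunit TPS3 by 1.65 ± 0.06 on the log2 scale. So did the enzymes that break trehalose down, the neutral trehalases NTH1 (3.66 ± 0.07) and NTH2 (1.98 ± 0.06) and the acid trehalase ATH1 (2.27 ± 0.08). For glycogen, 13 of 15 genes rose and 2 fell, PGM1 and GAC1, a regulatory subunit of a phosphatase that activates glycogen synthase. The rises included PGM2 (4.95 ± 0.21), glycogen synthase GSY2 (3.57 ± 0.19) and glycogen phosphorylase GPH1 (3.53 ± 0.16). Trehalose and glycogen genes together took 0.785, 0.786 and 0.754% of the pool with MMS and 0.0764, 0.0886 and 0.0764% without it, a ratio of 9.63.

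In glycolysis and fermentation 14 of 22 genes fell and 6 rose, and isoenzymes of the same step moved apart. GLK1 (4.01), TDH1 (2.70) and HXK1 (2.66) rose most, and HXK2 (-2.67), PDC1 (-2.62) and the aldolase FBA1 (-1.65) fell most. The list took 9.56% ± 0.24 of the pool with MMS and 11.2% ± 1.4 without it (SD, n = 3 each), and these groups overlapped. Among 36 pairs of related enzymes, the first member of each, mostly the form known from stress or respiratory growth, was higher while the second was lower in 19 pairs, both were higher in 13 and both lower in 2. The first member's share of the pair's TPM rose without overlap between the groups in 29 pairs and fell without overlap in 7. The pairs were chosen with earlier results of these data known, so these counts describe the chosen pairs only. Over all genes, the libraries of the 2 groups did not overlap for 83.9%. Hexokinase is an example. HXK1 had 406, 380.1 and 407 CPM with MMS, against 61.3, 73.7 and 54.1 CPM without it. HXK2, the form of glucose growth, had 336, 322 and 311 CPM against 2099, 2137 and 1907 CPM. The share of HXK1 in the pair was 55.7% ± 1.21 with MMS and 3.00% ± 0.33 without it (SD, n = 3 each). PGM2 made up 92.1% ± 0.17 with MMS and 14.1% ± 3.93 without it (SD, n = 3 each) in its pair with PGM1.

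Among the chosen pairs, the same exchange was seen in several pathways. In the pentose phosphate pathway, SOL4 (4.08), GND2 (2.77), NQM1 (4.25) and TKL2 (0.78) rose on the log2 scale. Their counterparts SOL3 (-0.28), GND1 (-1.70), TAL1 (-0.44) and TKL1 (-2.02) fell, SOL3 and TAL1 by so little that both were higher on the TPM scale. The share of SOL4 in lactonase messenger was 41.1% ± 1.32 with MMS and 3.32% ± 1.23 without it (SD, n = 3 each). RKI1, which makes ribose-5-phosphate for nucleotides, had 4.15, 3.59 and 4.57 CPM with MMS and 107, 105 and 143 CPM without it, the largest fall of that pathway. In glycerol synthesis, the phosphatase GPP2 rose by 1.72 ± 0.07 while GPP1 fell by 2.13, and the dehydrogenase GPD1 rose by 1.30 ± 0.13 while GPD2 fell by 0.49, a fall that the TPM scale did not keep. In the lower part of glycolysis TDH1 (2.70), PYK2 (2.24), GPM2 (2.14) and PDC6 (1.32) rose, against TDH3 (-0.94), CDC19 (-1.56), GPM1 (-1.23) and PDC1 (-2.62), yet these first forms still made up under 10% of their pairs. ENO1 was not called (0.37) while its near-identical copy ENO2 fell (-1.56). GLK1 and its paralog EMI2 both rose, by 4.01 ± 0.23 and 1.74 ± 0.13. TDH1 and TDH3 have near-identical copies. In glycerol use GCY1 (2.96), an oxidoreductase, and the kinase DAK1 (1.63) rose, and the channel FPS1 fell (-0.37), though it was above 0 on the TPM scale.

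**Figure D3:**
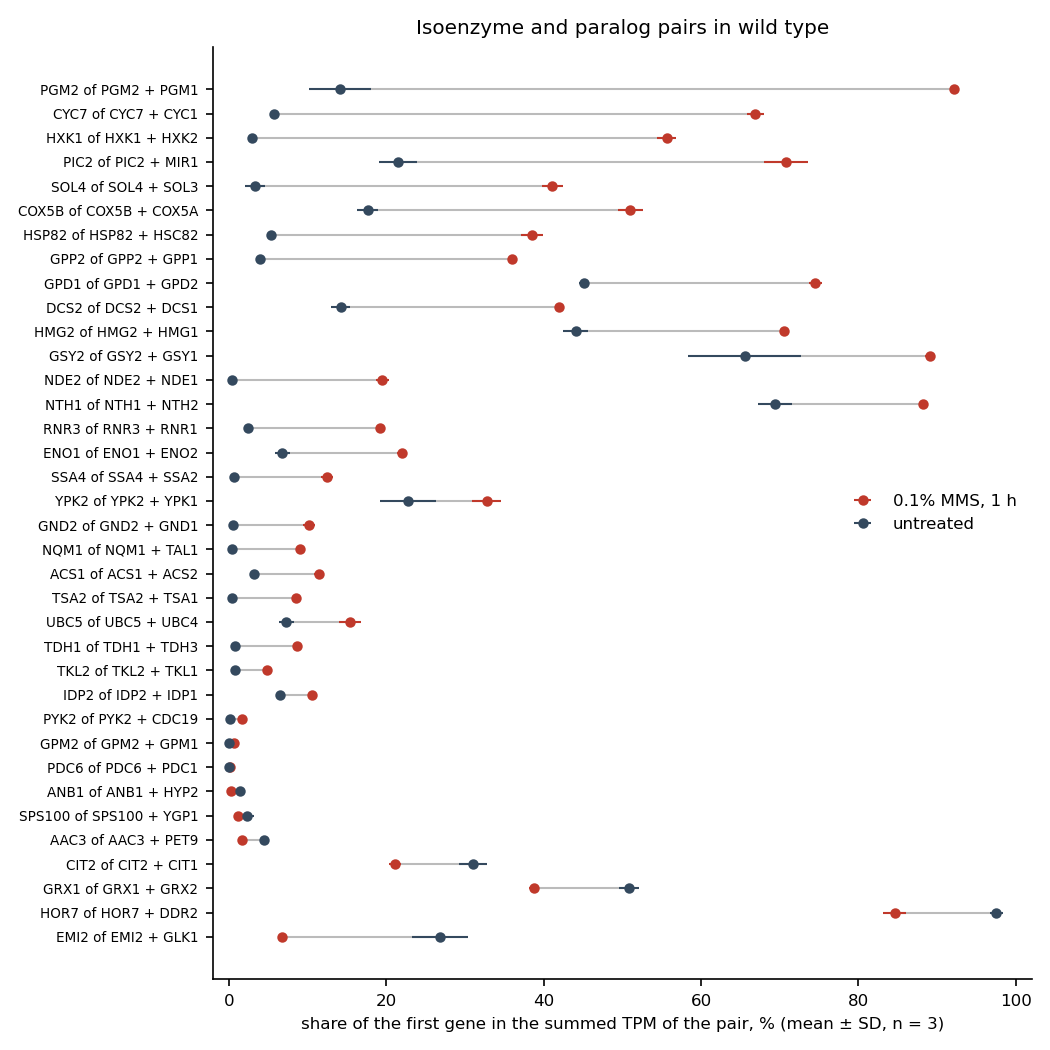
Share of the first gene in the summed TPM of each of 36 pairs of isoenzymes or paralogs, in percent (mean ± SD, n = 3), in MMS-treated and untreated wild type cells. PGM2 moves furthest, with 92.1% with MMS and 14.1% without it, and the 7 pairs at the bottom have a lower share with MMS.

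Outside carbohydrate pathways the pairs did likewise in the respiratory chain. The external NADH dehydrogenase NDE2 had 21.2, 22.4 and 21.3 CPM with MMS, against 3.30, 3.56 and 1.83 CPM without it. NDE1 had 80.3, 77.7 and 80.8 CPM against 595, 656 and 529.9 CPM. The hypoxic form of cytochrome c, CYC7, rose by 2.75 ± 0.21 while CYC1 fell by 2.36, and CYC7 made up 66.9% ± 1.07 with MMS and 5.78% ± 0.42 without it (SD, n = 3 each) of the 2. COX5B, the hypoxic form of a cytochrome oxidase subunit, rose (0.90) and COX5A fell (-1.47). The phosphate carrier PIC2 rose (1.74) and MIR1 fell (-1.54), whereas the ADP/ATP carriers AAC3 (-2.46) and PET9 (-1.04) both fell. Acetyl-CoA synthetase ACS1 rose (0.48) while ACS2 fell (-1.50). Among chaperones SSA4 rose (3.33) while SSA2 fell (-1.26), and HSP82 rose (2.40) while HSC82 fell (-1.06). SSA2 and both Hsp90 genes have near-identical copies, so their reads may be split. For HMG-CoA reductase HMG2 was not called (-0.21) and HMG1 fell (-1.85). Pairs that rose together were CIT2 (1.71) and CIT1 (2.42), IDP2 (1.61) and IDP1 (0.80), DCS2 (4.74) and DCS1 (2.67), UBC5 (1.54) and UBC4 (0.28), YPK2 (1.91) and YPK1 (1.23), SPS100 (3.04) and YGP1 (3.92), HOR7 (3.40) and DDR2 (6.32), GRX1 (1.23) and GRX2 (1.91), and GSY2 with GSY1 (1.34).

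Sugar uptake went the other way. Of 18 genes for hexose transport and glucose sensing, 3 rose and 9 fell, though the list median of -0.47 is 0.06 on the TPM scale. HXT2 (YMR011W, chrXIII:288079-289704 on the plus strand), a high-affinity transporter of glucose, had 17.7, 19.98 and 18.9 CPM with MMS, against 1670.0, 1555 and 1212 CPM without it, and its groups were far apart. HXT4 (-3.67), HXT3 (-2.19), HXT1 (-1.31), HXT13 (-1.06) and HXT6 (-0.95) fell too. The sensor SNF3 (-0.88) and the regulators STD1 (-1.85) and MTH1 (-0.79) fell, and the sensor RGT2 was not called. HXT5, the transporter of slow growth, rose by 2.55 ± 0.16, and HXT11 (1.62) and HXT9 (1.15), which have near-identical copies, rose with it. HXT7, HXT8, HXT10, HXT14 and GAL2 were not called. HXT6, HXT7 and HXT13 have near-identical copies too.

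Genes of mitochondrial metabolism differed by list. Of 17 TCA cycle genes 13 rose, led by citrate synthase CIT1 (2.42 ± 0.08) and the isocitrate dehydrogenase subunits IDH1 (1.65) and IDH2 (1.53). Of 17 genes for fatty acid oxidation and the carnitine shuttle 11 rose and 1 fell, with the carnitine carrier CRC1 (2.78) and the peroxisomal transporter PXA2 (1.95) at the top. Of 14 genes for gluconeogenesis and acetate use 10 rose, among them the activator SIP4 (3.48), the aldehyde dehydrogenase ALD4 (2.78) and PCK1 (2.04), the key gluconeogenic enzyme, while MDH2 fell (-1.23). Of 23 nuclear genes of the respiratory chain 16 fell and 3 rose, but the list median of -0.56 is -0.03 on the TPM scale. Their share of the pool was 0.234, 0.246 and 0.233% with MMS and 0.226, 0.235 and 0.252% without it, so the groups overlapped. Of 17 nuclear ATP synthase genes 3 rose at least 2-fold, and these were the inhibitor INH1 (1.33) and the stabilizing factors STF1 (2.20) and STF2 (2.14). ATP19 (-1.54) and ATP18 (-1.23) were lowest of 11 that fell, and the list median of -0.36 is 0.24 on the TPM scale. Of 68 genes of the mitochondrial ribosome 47 fell and 7 rose, led by MRPL44 (-1.86) and MRPL39 (-1.77) at one end and MRPL28 (1.06) at the other, and their median of -0.42 is 0.15 on the TPM scale. Of 6 measured genes of the mitochondrial genome OLI1 rose (0.54) and COX1 (-0.65) and COX3 (-1.12) fell, and poly-A selection limits what these values say.

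Genes against oxidants, electrophiles and aldehydes were among the highest. Of 17 genes for thioredoxins, superoxide and peroxides, 14 rose and 2 fell. SRX1, the sulfiredoxin that restores oxidized peroxiredoxins, had 94.8, 91.8 and 88.7 CPM with MMS, against 3.40, 3.83 and 2.23 CPM without it. TSA2 and the mitochondrial peroxiredoxin PRX1 (3.14) rose, and TSA1, already abundant, rose by 0.67 ± 0.12. TRX2 had 1524, 1672 and 1640.4 CPM against 311, 313 and 296 CPM. The list took 2.81, 3.02 and 2.87% of the pool with MMS and 0.816, 0.821 and 0.861% without it. Of 24 glutathione genes 19 rose and 4 fell, led by the transferases GTT2 (4.17), GTO3 (3.32) and GTT1 (2.83), while the glutathione transporter OPT1 fell (-1.33).

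Of 19 genes for handling aldehydes 18 rose and 1 fell. HSP31, which removes methylglyoxal, had 655, 756 and 657 CPM with MMS and 27.5, 28.4 and 29.0 CPM without it. The aryl-alcohol dehydrogenase family member AAD4 rose by 3.95 ± 0.09 and the aldehyde dehydrogenase ALD3 by 3.65 ± 0.18, both with near-identical copies among their relatives. ALD6, the main cytosolic acetaldehyde dehydrogenase, fell by 1.29. The aldehyde reductase YNL134C had 2540.0, 2435 and 2606 CPM with MMS, against 97.7, 104 and 83.7 CPM without it, and OYE3, an old yellow enzyme, had 64.9, 73.5 and 72.4 CPM against 2.50, 2.85 and 3.45 CPM. Both stood among the rises ranked 11 to 30. Of 19 genes of drug resistance 11 rose and 4 fell, with the transporters FLR1 (3.21), ATR1 (3.16) and QDR3 (1.95) highest and AUS1 (-1.15) lowest.

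**Figure D4:**
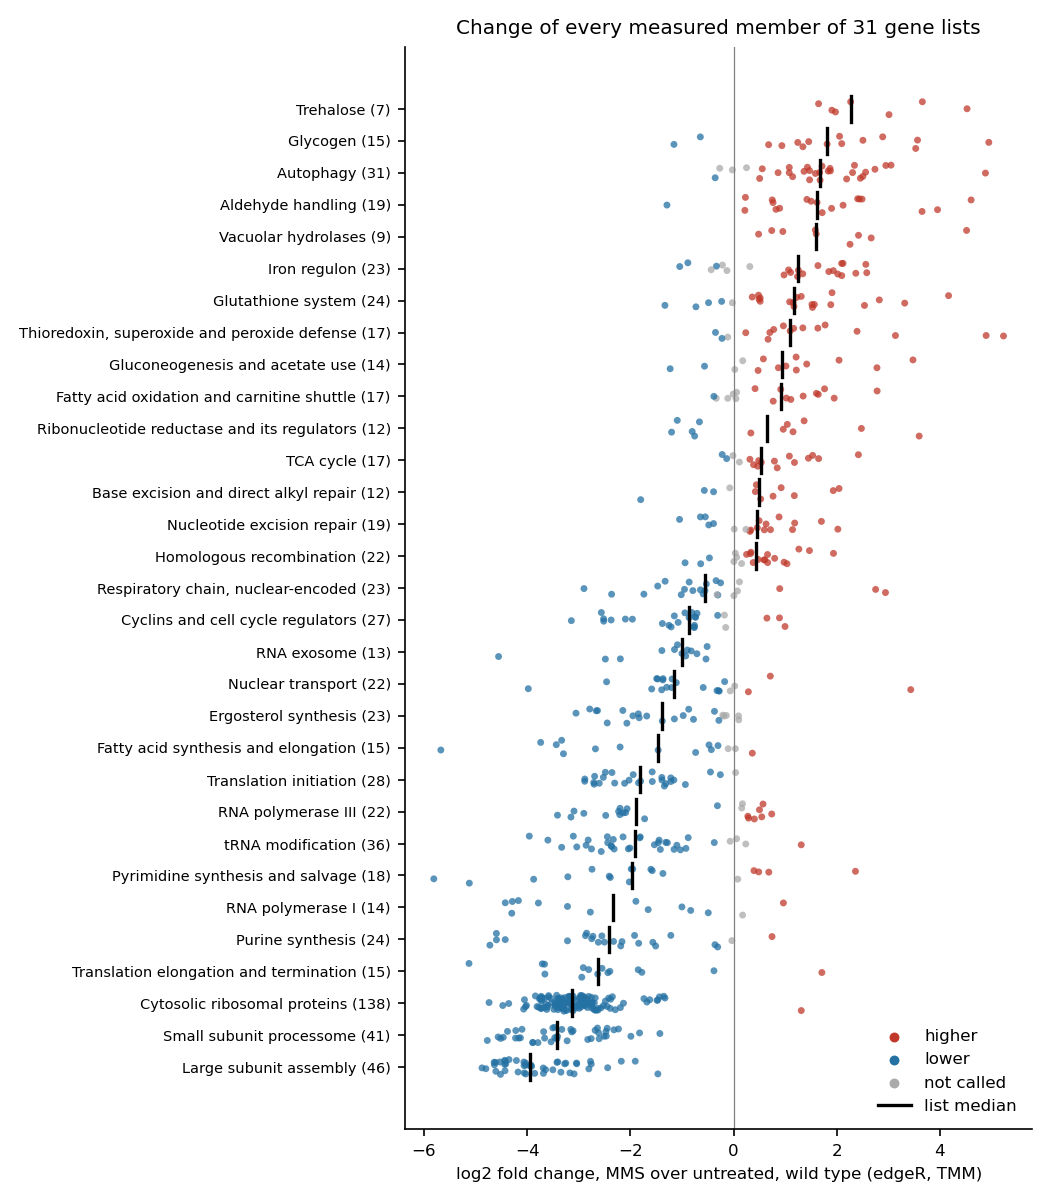
Log2 fold change of MMS-treated over untreated wild type cells for every measured member (points, number in brackets) of 31 gene lists, ordered by list median (black bar), with colour for the call. Reserve carbohydrates and autophagy lie at the top with medians of 2.27 (trehalose), 1.81 (glycogen) and 1.67, and both ribosome assembly lists lie at the bottom with medians of -3.41 and -3.94.

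Autophagy and the vacuole rose broadly. Of 31 autophagy genes 27 rose, 24 of them at least 2-fold, and 1 fell. ATG41, which takes part in autophagosome formation, had 548, 481 and 568 CPM in MMS-treated cells, against 19.5, 20.8 and 14.3 CPM in untreated cells. ATG34 (3.05), a receptor for vacuolar enzymes, and ATG33 (2.95), which serves the removal of mitochondria, followed. All 9 vacuolar hydrolases rose. APE1, an aminopeptidase that the autophagy machinery carries to the vacuole, had 942, 835 and 881 CPM with MMS and 38.1, 46.6 and 31.8 CPM without it. The carboxypeptidase ATG42 (2.67) and the mannosidase AMS1 (2.42) rose as well. The list took 0.991, 0.960 and 0.982% of the pool with MMS and 0.161, 0.167 and 0.134% without it. The vacuolar proton pump did not follow: 2 of 15 genes rose and 11 fell, with VMA9 (-3.18), VMA10 (-1.68) and VMA7 (-1.20) lowest, and a list median of -0.64 that is 0.05 on the TPM scale. Of 28 genes for ubiquitin conjugation and stress adaptors 17 rose and 4 fell. Polyubiquitin UBI4 rose by 4.21 ± 0.07, and UFD1 (2.17) and NPL4 (2.11), the cofactors of the segregase Cdc48, rose together. GID11, a substrate receptor of the GID ubiquitin ligase, ranked 23 among all rises (4.42).

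Among iron genes most rose, and transporters changed in both directions. Of 23 genes of the iron regulon 16 rose and 3 fell. TIS11, which degrades messengers of iron-using proteins, rose by 2.58 ± 0.15, the mitochondrial iron carrier MRS4 by 2.56 ± 0.06 and FIT2 by 2.37 ± 0.23. The high-affinity iron permease FTR1 fell (-1.04), as did the copper chaperone ATX1 (-0.89). Permeases of amino acids and ammonium were near the share of all genes (42% higher and 41.2% lower). Of 26 genes 13 rose, led by ALP1 (1.81), AGP1 (1.80) and GAP1 (1.67), and 9 fell, led by MMP1 (-2.15), PTR2 (-1.70) and TAT1 (-1.51). Of 19 genes of phosphate metabolism 7 rose, with the phosphatase PHM8 (2.86), GIT1 (1.40) and the kinase PHO85 (1.37) highest. A further 10 fell, with the acid phosphatase PHO3 (-4.41), PHO12 (-2.23) and PHM6 (-1.85) lowest, and the list median of -0.48 is 0.13 on the TPM scale. PHO12 has a near-identical copy. Of 12 polyamine genes 5 rose and 4 fell, against 42% of all genes higher and 41.2% lower. The transporters AGP2 (1.96) and TPO4 (1.11) and the oxidase FMS1 (1.27) were among those that rose. The synthases SPE3 (-1.91) and SPE4 (-1.33) and the decarboxylase SPE2 (-1.63) were among those that fell.

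Genes that repair alkylated DNA had a median log2 change of 0.48, and of 0.98 on the TPM scale. The medians of all genes on these scales were 0.02 and 0.55. Of 12 genes for base excision and direct repair 8 rose and 3 fell, against 42% of all genes higher and 41.2% lower. MAG1 (YER142C, chrV:455146-456036 on the minus strand), the glycosylase that removes methylated purines, had 29.6, 34.8 and 31.5 CPM in MMS-treated cells, against 5.60, 6.95 and 10.2 CPM in untreated cells. It rose by 2.04 ± 0.22 on the log2 scale (edgeR's quasi-likelihood test, adjusted p = 1.04e-08). NTG1, a glycosylase with lyase activity, rose by 1.93 ± 0.08, the second apurinic endonuclease APN2 by 1.18 ± 0.14, and the main one, APN1, by 0.44 ± 0.09. MGT1, which takes the methyl group off guanine, rose by 0.77 ± 0.15. TPP1 (0.92), NTG2 (0.53) and HNT3 (0.42) also rose, the last with adjusted p-values of 0.0604 to 0.129 when MMS replicate 1 or 2 or untreated replicate 1 or 2 was left out. OGG1, the glycosylase of oxidized guanine, fell by 1.80. UNG1, the uracil glycosylase (-0.57), and the flap nuclease RAD27 (-0.39) fell on this scale, and both were above 0 on the TPM scale. The ligase CDC9 was not called.

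Other repair pathways differed from each other. Of 19 nucleotide excision repair genes 12 rose and 5 fell, against 42% of all genes higher and 41.2% lower. The damage sensor subunit RAD4 had 76.1, 70.3 and 80.9 CPM with MMS and 18.6, 16.9 and 20.2 CPM without it. RAD16 (1.70) and the nuclease RAD2 (1.19) came next, and TFB5 (-1.05), TFB2 (-0.64) and TFB1 (-0.55), subunits of the general factor TFIIH, fell, though TFB1 was at 0.00 on the TPM scale. Of 22 homologous recombination genes 15 rose and 3 fell, beside the same shares of all genes. MMS4, a subunit of a junction nuclease, had 31.8, 30.6 and 32.2 CPM with MMS and 10.7, 12.0 and 11.3 CPM without it, and RAD54 rose (1.27). The helicases SGS1 (-0.94) and SRS2 (-0.64) fell. Damage bypass, with 5 of 11 genes higher and 4 lower, was near the share of all genes (42% higher and 41.2% lower). RAD5 (0.73), UBC13 (0.67) and MMS2 (0.54), which extend ubiquitin chains on PCNA, were the highest. RAD6 (-1.08), which adds the first ubiquitin, and the polymerase REV1 (-1.15) were among those that fell. In mismatch repair 5 of 7 genes rose by 0.38 to 0.58, among them PMS1 (0.58) and MLH3 (0.48), and MSH6 fell (-0.59).

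Of 15 checkpoint genes 6 rose, 4 fell and 5 were not called, against 42% of all genes higher and 41.2% lower. DUN1, the kinase that controls ribonucleotide reductase, had 52.0, 55.2 and 49.5 CPM with MMS and 10.7, 10.9 and 16.1 CPM without it. RAD53 rose by 1.06 ± 0.09 and CHK1 by 0.60 ± 0.06, whereas the adaptor RAD9 (-1.36) and the apical kinases MEC1 (-0.72) and TEL1 (-0.45) fell, and on the TPM scale MEC1 was not called and TEL1 was above 0. TOF1 (0.40), MRC1 (0.38) and MEC3 (0.33) rose by little, DPB11 fell (-0.74) but was not called on the TPM scale, and RAD24, LCD1, CSM3, DDC1 and RAD17 were not called. Ribonucleotide reductase went further. RNR3 (YIL066C, chrIX:238099-240708 on the minus strand), the damage-induced large subunit, had 175, 146 and 145 CPM with MMS, against 16.3, 11.7 and 10.97 CPM without it, a 12.1-fold rise. RNR1, the main large subunit, rose by 0.34 ± 0.13 on the log2 scale, a call lost when MMS replicate 1 (adjusted p = 0.131) or untreated replicate 3 (adjusted p = 0.0945) was left out. RNR3 made up 19.2% ± 0.26 with MMS and 2.43% ± 0.51 without it (SD, n = 3 each) of the 2. The small subunits RNR2 (1.37) and RNR4 (0.96) and the small protein HUG1 (2.48) rose. The inhibitor SML1 (-0.75), the importer DIF1 (-0.80) and the factors IXR1 (-1.09), MBP1 (-0.66) and WTM2 (-1.20) fell, while the repressor RFX1 (1.15) and the nuclear anchor WTM1 (1.04) rose. The list of 12 took 0.569% ± 0.013 of the pool with MMS and 0.245% ± 0.018 without it (SD, n = 3 each).

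Among 40 DNA replication genes 16 rose and 17 fell, near the shares of all genes (42% higher and 41.2% lower). The list median near 0 is 0.57 on the TPM scale. The single-strand binding proteins RFA1 (1.64) and RFA2 (1.24) and PSF2 (1.30) of the replicative helicase were highest. The licensing factors CDC6 (-1.58) and ORC1 (-1.44) and the initiation factor SLD3 (-1.29) were lowest. The cell cycle list leaned one way, with 22 of 27 genes lower and 3 higher. The mitotic cyclin CLB2 had 7.47, 6.71 and 6.59 CPM with MMS, against 64.1, 58.0 and 61.4 CPM without it. The G1 cyclin CLN2 had 20.8, 22.7 and 22.2 CPM against 129.9, 128 and 119 CPM. CLB1 (-2.56), CDC5 (-2.52), CLN1 (-2.37), SWI5 (-2.10), CLN3 (-1.96), CLB6 (-1.25), FAR1 (-1.21), CLB4 (-1.15) and ESP1 (-1.07) fell at least 2-fold. CKS1, MIH1, DBF4, SWI6, CLB5, CLB3, SIC1, WHI5 and SWE1 fell by 0.71 to 0.94, and of these only CKS1 was also called on the TPM scale. CDC20 fell by 0.31 and was higher on the TPM scale. CDC28, the cyclin-dependent kinase itself, rose by 1.00 ± 0.07, CDC7 by 0.89 ± 0.08 and the securin PDS1 by 0.65 ± 0.10. SWI4 and CDH1 were not called. Genes of daughter cell separation fell with them, 10 of 11, led by EGT2 (-2.23), ASH1 (-1.95) and DSE2 (-1.76), while DSE1 rose (0.91).

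The machinery that makes ribosomes was turned down throughout. All 41 genes of the small subunit processome and all 46 of large subunit assembly fell at least 2-fold, with list medians of -3.41 and -3.94. RRP5, which serves both subunits, had 19.1, 22.2 and 22.4 CPM with MMS, against 576, 567 and 603 CPM without it. BRX1 had 5.88, 6.14 and 5.54 CPM against 167, 155 and 196 CPM, and the GTPase NOG2 had 8.72, 5.72 and 7.31 CPM against 208, 185 and 206 CPM. Of the 20 falls ranked 11 to 30, 8 belong to these lists: BRX1, NOG2, RRP5, NOP15 (-4.64), MAK16 (-4.63), NOP2 (-4.62), DBP3 (-4.61) and ENP2 (-4.56). CGR1, HAS1, SDA1 (-4.80), NIP7 (-4.62), SYO1 (-4.58), MRD1 (-4.57) and ECM1 (-4.56), all known from ribosome assembly or transport, ranked with them. Of those 20 genes, 19 have both PAC and RRPE in the promoter, and the exception is RPS26B. Both stood in 7.70% of all promoters and in 35.9% of those of genes at least 4-fold lower. The stress response element is in 8 of the 20 as well, against 22.6% of all promoters. NOP1, the methyltransferase of box C/D particles, fell by 4.51. Of 138 ribosomal protein genes 137 fell, RPS26B (-4.74), RPL9A (-4.47) and RPS10A (-4.36) the most. RPL15B, the minor copy of RPL15A, was the exception, with 57.2, 54.8 and 58.3 CPM with MMS and 23.5, 23.1 and 22.0 CPM without it. RPS26B, RPL9A and RPL15B have near-identical copies, and the median of the 84 ribosomal protein genes without one was -3.16.

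RNA polymerases that transcribe the ribosomal and transfer RNA genes fell as well. Of 14 RNA polymerase I genes 12 fell. RPA135, its second largest subunit, had 58.5, 49.9 and 56.8 CPM in MMS-treated cells, against 1209, 1217 and 1118 CPM in untreated cells, and RPA190 (-4.30) and RPA49 (-4.29) were as low, while RRN10 rose (0.97). Of 22 genes of RNA polymerase III and its factors 13 fell and 7 rose. The falls were led by RPC31 (-3.41) and by RPC19 (-3.15) and RPC40 (-3.09), which polymerase I shares. The rises were small and were led by TFC3 (0.74), TFC6 (0.57) and TFC8 (0.55), subunits of the factor TFIIIC. In RNA polymerase II, the shared subunits RPO26 (-3.17), RPB5 (-2.99) and RPB8 (-2.54) led 9 falls among 10 genes. Of 36 tRNA modification genes 32 fell and 1 rose. TRM11, a guanine methyltransferase subunit, had 6.71, 6.14 and 7.05 CPM with MMS and 99.8, 98.8 and 109.9 CPM without it. URM1 (-3.60), the ubiquitin-like sulfur carrier, and TRM1 (-3.33) followed, whereas UBA4 (1.31), the enzyme that activates Urm1, was the gene that rose.

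Genes of translation initiation and elongation fell, with list medians of -1.82 and -2.63. Of 28 initiation genes 27 fell, with the scaffold TIF4631 (-2.88), TIF11 (-2.88) and TIF3 (-2.71) lowest. Of 15 genes of elongation and termination 14 fell. ANB1, the hypoxic form of eIF5A, had 0.831, 0.624 and 0.783 CPM with MMS and 25.4, 28.3 and 24.2 CPM without it, and its near-identical copy HYP2 fell by 2.55. The elongation factors YEF3 (-3.71) and TEF4 (-3.66) fell, while HEF3, a paralog of YEF3, rose by 1.71 ± 0.08. All 13 genes of the RNA exosome and its cofactors fell, with the helicase MTR4 at 12.6, 10.9 and 14.2 CPM against 301, 289 and 292 CPM and LRP1 (-2.48) and RRP6 (-2.19) next. Of 20 genes that act at collided ribosomes or in quality control 13 fell and 6 rose, and the list median of -0.49 is 0.02 on the TPM scale. ASC1, a ribosomal protein that takes part in quality control at collisions, fell by 3.28, and RBG1 (-2.67) and TMA46 (-2.31) fell with it. MBF1 rose by 1.34 ± 0.10, RQC1 by 0.72 ± 0.05 and CUE3 by 0.62 ± 0.09. GCN2 was not called (-0.02) and the GCN4 messenger fell by 0.77. These are messenger levels and say nothing of translation. In messenger decay the decapping activators EDC2 (2.58) and EDC1 (1.44) and SKI7 (0.91) rose, and DCP1 (-1.71), PAT1 (-1.23) and NAM7 (-1.08) fell. Of 22 nuclear transport genes 17 fell. The importin KAP123, which carries ribosomal proteins, fell by 3.98. The GTPase Ran changed form, with GSP2 at 184, 215 and 192 CPM with MMS and 16.6, 19.9 and 18.1 CPM without it and GSP1 at 144, 150.5 and 144 CPM against 742, 769.9 and 905 CPM.

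Nucleotide synthesis fell. Of 24 purine genes 22 fell and 1 rose. GUA1, which makes GMP, had 44.3, 44.5 and 46.8 CPM with MMS, against 1165, 1199 and 1216 CPM without it. IMD4, an IMP dehydrogenase, had 49.3, 48.7 and 46.6 CPM against 1262, 1248 and 988 CPM, and HPT1, which salvages hypoxanthine and guanine, had 11.9, 13.2 and 13.1 CPM against 281, 300.5 and 343 CPM. ADE16, a late enzyme of the pathway, rose by 0.75 ± 0.10. Of 18 pyrimidine genes 13 fell and 4 rose. URA7, shown above, and URA1, the dihydroorotate dehydrogenase (-5.12), fell furthest, followed by FUR1 (-3.88). URA10, the minor orotate phosphoribosyltransferase, rose by 2.36 ± 0.11. One-carbon metabolism did not fall as a list: 8 of 19 genes fell, near the 41.2% of all genes, and its share of the pool was 0.382, 0.391 and 0.384% with MMS and 0.358, 0.358 and 0.348% without it. The falls were led by MIS1 (-3.86), SHM2 (-2.34) and SHM1 (-1.95), which feed carbon into purines. In the same list 7 rose, led by SER3 (1.67) of serine synthesis and GCV1 (1.41) and GCV2 (1.39) of glycine cleavage.

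Lipid and cell wall genes changed in both directions. Of 23 ergosterol genes 18 fell, with ERG5 (-3.05), ERG3 (-2.79) and ERG25 (-2.66) lowest. Of 15 genes of fatty acid synthesis 12 fell. OLE1, the only fatty acid desaturase, had 38.5, 41.0 and 46.5 CPM with MMS and 2533, 1959 and 1936 CPM without it, and FAA4 (-3.74) and the elongase ELO3 (-3.44) followed. Phospholipid genes were split, with 6 of 19 higher and 6 lower and a list median near 0, against 42% of all genes higher and 41.2% lower. INO1, which makes inositol phosphate, rose by 2.78 ± 0.15 and the methyltransferase OPI3 by 1.75 ± 0.14, while CDS1, which makes CDP-diacylglycerol, fell by 2.09 and the inositol transporter ITR1 fell by 1.83. Among sphingolipid genes the ceramidase YDC1 (1.81), the regulator ORM2 and the kinase LCB5 (1.24) rose, and SUR2 (-2.42), AUR1 (-2.28) and SUR1 (-1.39) fell. In the cell wall list 10 of 28 genes rose and 12 fell, near the shares of all genes (42% higher and 41.2% lower). PIR3, a wall protein, had 249, 225 and 273 CPM against 15.2, 15.9 and 12.0 CPM, the integrity kinase SLT2 rose by 1.52 ± 0.08, and PIR1 (-2.90), the septum chitin synthase CHS2 (-2.68) and the glucanosyltransferase GAS1 (-2.61) fell. The protease YPS6 had 207, 186 and 200.1 CPM with MMS and 9.61, 10.4 and 8.26 CPM without it. HTA2 (-4.27), HTB2 (-4.11) and HHF2 (-2.75) were lowest among 11 histone genes, which all fell, and most histone genes have near-identical copies.

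Transcription factors changed in both directions. Of 41 stress and growth factors 22 rose and 13 fell, against 42% of all genes higher and 41.2% lower. MSN2 and MSN4 rose by 0.52 ± 0.07 and 0.70 ± 0.11 on the log2 scale. Larger rises were those of MET28 (2.48), of sulfur metabolism, USV1 (2.24), XBP1 (1.98), GAT1 (1.96), of nitrogen genes, YAP1 (1.73), of oxidative stress, CAD1 (1.65), YAP5 (1.26), HSF1 (1.20), RPN4 (1.17), of proteasome genes, GLN3 (1.15), CUP2 (1.05) and CRF1 (1.00). ROX1 (0.77), YAP6 (0.75), CBF1 (0.63), MET4 (0.36), STB5 (0.32), SFP1 (0.25), SKO1 (0.25) and STB3 (0.23) rose by less. TOD6, a repressor that binds PAC, had 7.20, 6.92 and 6.85 CPM with MMS, against 106, 97.6 and 118 CPM without it, while its relative DOT6 was not called. IFH1 (-1.71), FHL1 (-1.17) and RAP1 (-0.80), which activate ribosomal protein genes, fell, as did SKN7 (-1.31) and YAP7 (-0.94). ABF1, GZF3, GIS1, HAA1, WAR1 and REB1 fell by 0.14 to 0.36, and all 6 were above 0 on the TPM scale. GIS1, HAA1, WAR1 and REB1 also lost the call when single libraries were left out. DAL80, MET32, HOT1, CIN5 and HAC1 were not called. Among 36 growth signalling genes the kinase YAK1 (1.99) and SIP2 (1.82) rose, and RAS1 (-3.28), TPK3 (-1.18) and the repressor MIG2 (-0.91) fell.

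Several smaller groups and single genes complete the picture. Of 27 genes of pheromone response 12 rose and 10 fell, near the shares of all genes (42% higher and 41.2% lower). STE11 (1.88), PRM1 (1.27) and FUS1 (1.21) were highest and STE12 (-1.25) and BAR1 (-1.25) lowest. Of 28 meiotic genes 13 rose, near the 42% of all genes, and 5 fell, against 41.2% of all genes. SPS100 was highest and SPS4 (-2.92), SPO74 (-2.04) and SSP1 (-1.59) were lowest. In the SUMO pathway the conjugating enzyme UBC9 fell by 2.11 and the protease ULP2 fell by 1.26, and in entry to the endoplasmic reticulum OST5 (-2.35), PMT4 (-1.78) and ALG5 (-1.71) fell while PMT3 rose (1.03). The chaperones HSP42 (4.39) and HSP78 (4.38), of cytosol and mitochondria, ranked 26 and 28 among rises, and MSC1 (4.38) and FMP23 (4.34) stood beside them. With at least 10 TPM on average in MMS-treated cells and under 1 TPM in untreated cells, 2 genes passed as switched on. With limits of 20 and 2 TPM, 9 passed as switched on and 4 as switched off. YOL131W had 10.7, 11.9 and 15.5 TPM with MMS, against 0.397, 0.351 and 0.219 TPM without it. YFL019C had 9.17, 12.5 and 11.4 TPM against 0.864, 0.396 and 1.63 TPM. The groups did not overlap for either gene.

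Position along the chromosome went with the response. Of 215 tested genes within 20 kb of a chromosome end, 37.7% were at least 2-fold higher and 5.58% at least 2-fold lower with MMS, against 19.1% and 22.3% of 5454 genes further than 30 kb away. The median log2 change near the ends was 0.69, and 0.74 for the 112 genes there without a near-identical copy. These genes are low in untreated cells, with a median of 6.19 TPM against 25.8 TPM further inside. Genes of over 3000 bases were at least 2-fold higher in 10.3% of cases, against 22.3% for spans of 1000 to 2000 bases.

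The wild type response was then set against the mean response of the 3 deletion strains. The contrast gives the genes whose wild type change differs from that mean. Differences between the untreated cells of the strains enter it too. Which changes need Gcn2, Gcn4 or Mbf1 was not tested. Of 5818 genes, 951 responded higher in wild type (16.3%) and 1062 lower (18.3%) by edgeR's quasi-likelihood test, and 131 (2.25%) and 67 (1.15%) differed at least 2-fold. Genes of arginine synthesis were among those with the highest differences, below ARO5. ARG1, argininosuccinate synthetase, rose by 4.34 on the log2 scale in wild type, against 0.18, 1.36 and 0.95 in gcn2Δ, gcn4Δ and mbf1Δ cells. ARG4 rose by 4.70, against 0.91, 1.50 and 2.12 in those strains. ARG7, of the same pathway, rose by 3.22, against -0.74, -0.65 and 0.95 in those strains, a mean of -0.15. YOR302W, the short upstream frame of CPA1 whose model with its flanks runs into that gene, rose by 3.53. Its responses in those strains were -0.61, 0.47 and 0.55, a mean of 0.14. ARO5 rose by 4.40 against 0.35, -0.03 and 1.44, a mean of 0.59. SNZ1, of vitamin B6 synthesis, rose by 3.28 against a mean of -0.02. HIS4, of histidine synthesis, rose by 1.45 in wild type, against -2.04, -1.36 and -1.14 in gcn2Δ, gcn4Δ and mbf1Δ cells. TMT1 and RTC2, whose promoters stand above, rose by 4.84 and 4.94 against means of 1.50 and 1.51.

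On the other side, genes rose less or fell further in wild type. The drug transporter FLR1 rose by 3.21 in wild type, against 4.94, 4.80 and 4.53 in gcn2Δ, gcn4Δ and mbf1Δ cells. LSO1 rose by 3.51 against 4.83, 4.72 and 5.46. The chaperone genes were not uniform. SSA4 rose by 3.33 in wild type, against 5.16 in gcn2Δ and 5.92 in mbf1Δ cells but 2.95 in gcn4Δ cells. BTN2 rose by 2.32, against 4.40 and 4.57 in gcn2Δ and mbf1Δ cells and 2.45 in gcn4Δ cells. The assembly factors NOP14 and ESF1 fell to log2 changes of -4.23 and -3.54 in wild type, against mean mutant responses of -2.77 and -2.17, and URA7 to -5.81 against -4.52. The mannoprotein TIP1 changed by -1.999 in wild type and -0.56 in the mutants. YRF1-6, a member of a family of near-identical subtelomeric genes, and FYV5, which overlaps ADF1, differed by -2.62 and -1.62, and their reads cannot be assigned with certainty. The difference of FYV5 was -0.93 without MMS replicate 2 (adjusted p = 0.0865), and that of YRF1-6 was -2.07 and -1.95 without MMS replicate 1 or 2 (adjusted p = 0.0551 and 0.0643) and was not called by DESeq2 (adjusted p = 0.120).

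By list, ribosome genes fell further in wild type. In the large subunit list 42 of 46 genes, in the processome list 39 of 41 and among ribosomal proteins 114 of 138 fell further in wild type than the mutant mean, with median differences of -0.85, -0.79 and -0.44. In the same test, 14 of 17 TCA cycle genes and 15 of 23 respiratory chain genes had a response above the mutant mean. The median differences were 0.48 and 0.45. Of those 23 genes 16 fell in wild type, so a higher response there can be a smaller fall. Among DNA damage genes 1 of 12 base excision genes was above the mutants and 3 below, and 6 of 22 homologous recombination genes were below. Over all genes the shares were 16.3% above and 18.3% below. With lists this small, these counts are not read as a trait of DNA damage genes. Promoter motifs differed between these sets as well. TGACTC was in 46.2% of the promoters of 130 genes responding at least 2-fold higher in wild type, against 7.96% of all promoters. For 67 genes responding at least 2-fold lower in wild type, 65.7 and 68.7% of promoters held PAC and RRPE. Over all promoters these shares were 18.5 and 24.9%. The stress response element was in 33.1% of the higher set and 14.9% of the lower set, against 22.6% of all promoters. For the Rpn4 core these shares were 3.85 and 14.9%, against 7.305%. The libraries of the strains differ in ribosomal RNA, whose share of counts was 0.367 to 1.51% in gcn4Δ libraries and 7.400 to 19.5% in those of gcn2Δ and mbf1Δ, and its part in these differences was not tested.

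**Figure D5:**
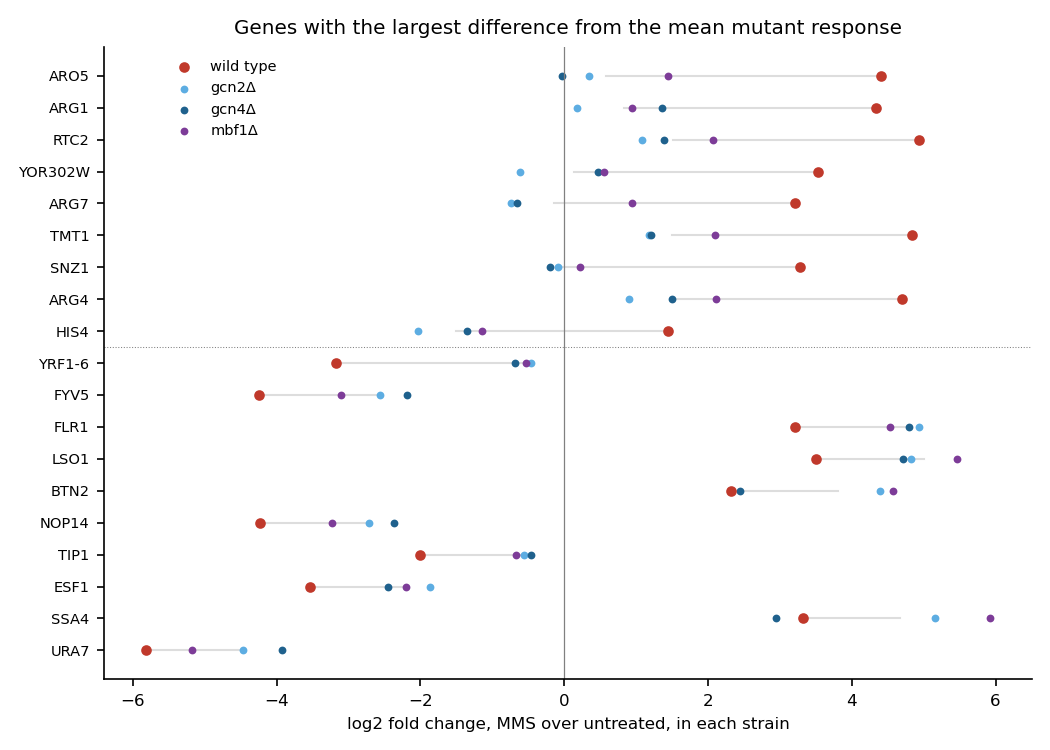
Log2 fold change of MMS-treated over untreated cells in wild type (large red points) and in gcn2Δ, gcn4Δ and mbf1Δ cells (small points) for 19 genes at the upper and lower ends of the difference of the wild type response from the mean mutant response, above and below the dotted line. ARG1 stands at 4.34 in wild type and at or below 1.36 in the mutants, while FLR1 stands at 3.21 in wild type and at 4.53 or above in the mutants.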

How the data were processed

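Poly-A selected RNA of 24 yeast libraries was sequenced as paired reads of 150 bases, per the labels' protocols. Per the submitters' processing notes, FastQC 0.11.9, fastp, Salmon 1.10.1 and DESeq2 1.38.3 were used with build R64. The deposited Salmon files give an estimated count and a TPM value for each of 5912 features, per the file headers. For 5620 of the 5906 features matched to the RefSeq R64 table, the model length equals the gene span plus 400 bases, so neighbours can share reads. The authors' tables of comparisons, which hold a score (mean normalized count), log2 fold changes and p-values of the deletion strains, were deposited by the authors and were used here only for the list of genes. In all, 5909 features were used and some genes are not reported here.

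Estimated counts were rounded and tested with edgeR 4.0.16 (R 4.3.3): TMM scaling, a filter on low counts with a minimum of 10 that left 5821 genes, and a quasi-likelihood test with 1 mean per group over all 8 groups of 3 libraries (16 residual degrees of freedom, biological coefficient of variation 8.50%). Contrasts were MMS-treated minus untreated wild type, and that response minus the mean response of the 3 deletion strains, with p-values adjusted by the Benjamini-Hochberg method over all genes tested and a threshold of 0.05. Standard errors were computed from the fold change and its F statistic. TMM factors were 1.07 to 1.09 in MMS-treated and 0.675 to 0.829 in untreated wild type libraries. Pool shares used summed TPM without 11 genes whose models hold ribosomal RNA, and were compared with exact permutation tests. On data simulated for 5821 genes, 95% of 2-fold and 80% of 1.5-fold changes were recovered for the wild type contrast, with 3 false calls. For the contrast with the deletion strains 90% and 71% were recovered, with 4 false calls. In that simulation 100 genes were changed at each size, up and down in equal number. They were changed in MMS-treated wild type only, from a baseline shared by all groups. In the real data most genes changed, so these rates may not carry over to them. Near-identical copies (300 genes) share at least 90% identity over at least 50% of their length in a blastn 2.17.0 search, and 100 genes are overlapped by another gene over more than 10% of their span, GRX2, YAK1, FYV5, ADF1 and COX1 among those named. Counting error alone would understate the spread, so precision is given by the replicates, which are separate cultures as far as the labels state.

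The 63 gene lists and 36 pairs were chosen with earlier results of these data known. Genes were named by rule: those ranked 11 to 30 by fold change among rises and among falls with a mean of at least 50 counts and no overlap between groups, up to 3 rises and falls per list, both genes of each pair, all members of 7 short lists, the switched genes, and the 10 highest and lowest of the contrast with the deletion strains with at least 50 counts, apart from genes not reported here. SPO24, NCE102, YHB1, AHP1 and HOR7 are named from the order of the pool, and further members of some lists were named after their values were seen. Alternatives were RLE size factors, DESeq2 1.42.0, no filter, limma 3.58.1 on log2 TPM values, a replicate block, removal of ribosomal RNA genes, a fit of the 6 wild type libraries alone, and omission of each wild type library in turn.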

Additional observations from a re-analysis of the deposited data

Results flagged for a closer look

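These are 19 genes at the ends of the contrast between the wild type response and the mean response of gcn2Δ, gcn4Δ and mbf1Δ cells. They were taken from the genes called by edgeR's quasi-likelihood test of that difference, so that all are called follows from the choice. Responses higher in wild type were those of ARO5 (a difference of 3.82 on the log2 scale), ARG1 (3.51), RTC2 (3.42), YOR302W (3.39), ARG7 (3.36), TMT1 (3.34), SNZ1 (3.30), ARG4 (3.20) and HIS4 (2.96). Responses lower in wild type were those of YRF1-6 (-2.62), FYV5 (-1.62), FLR1 (-1.55), LSO1 (-1.50), BTN2 (-1.49), NOP14 (-1.46), TIP1 (-1.44), ESF1 (-1.37), SSA4 (-1.35) and URA7 (-1.29). The difference of YRF1-6 was not called by DESeq2 (adjusted p = 0.120) or without MMS replicate 1 or 2 (edgeR, adjusted p = 0.0551 and 0.0643), and that of FYV5 was not called without MMS replicate 2 (edgeR, adjusted p = 0.0865). The strains were not uniform for SSA4 and BTN2, whose responses in gcn4Δ cells (2.95 and 2.45) were near those of wild type (3.33 and 2.32).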

How the results depend on the processing

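The count of genes called in wild type lay between 4712 and 4840 in each edgeR or DESeq2 setting and at 4757 with limma on log2(TPM + 1), against 4839. Leaving out 1 wild type library gave 4712 to 4736 called, 2373 to 2390 higher, 2332 to 2354 lower, 1148 to 1172 at least 2-fold higher and 1241 to 1270 at least 2-fold lower. For the contrast with the deletion strains it gave 1683 to 1964 called, 805 to 929 higher, 878 to 1035 lower, 122 to 146 at least 2-fold higher and 56 to 70 at least 2-fold lower. With the replicate number as a block 4826 were called (2434 higher, 2392 lower) and 1938 in the contrast. Deviations of same-numbered libraries correlated at 0.083, -0.097 and -0.015. Those of differently numbered libraries correlated at -0.129 to 0.149, so these values cannot tell whether the numbers pair the samples.

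The TPM scale moved the split between higher and lower calls. With limma on log2(TPM + 0.1), on log2(TPM + 1) with low genes removed and on log2(TPM + 1), 1365, 1362 and 1361 genes were lower, 2063, 1909 and 1909 at least 2-fold higher and 815, 786 and 786 at least 2-fold lower. In the contrast these settings called 1327, 1328 and 1330 genes, of which 541, 537 and 538 were higher, and both settings with a pseudocount of 1 gave 39 at least 2-fold lower. Of the calls shared with log2(TPM + 1), 3800 had the same direction and 182 the opposite one. Among 463 genes named, these turned above 0 on the TPM scales, with log2 changes for pseudocounts of 0.1 and 1: ABF1 0.23 and 0.22, CDC20 0.28 and 0.27, CDC9 0.53 and 0.51, CDH1 0.44 and 0.42, CIN5 0.52 and 0.47, DDC1 0.42 and 0.37, FPS1 0.24 and 0.23, GAL2 0.55 and 0.42, GCN2 0.48 and 0.45, GIS1 0.25 and 0.24, GZF3 0.24 and 0.23, HAA1 0.38 and 0.36, HOT1 0.56 and 0.53, HXT7 0.62 and 0.61, RAD27 0.23 and 0.22, REB1 0.45 and 0.44, RGT2 0.46 and 0.44, TEL1 0.0343 and 0.0299, TFB1 0.00211 and 0.00153, UNG1 0.0333 and 0.032, WAR1 0.37 and 0.34. With both pseudocounts alike they were GPD2 0.19, HAC1 0.56, HMG2 0.35, SOL3 0.35, TAL1 0.25. Several of these genes were not called in either direction by edgeR. In edgeR or DESeq2 settings the medians of 8 of 63 lists changed sign: the mitochondrial genome, phospholipids, sphingolipids, DNA replication, the cell wall, polyamines (only without untreated replicate 3), pheromone response and SUMO.

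Ribosomal proteins took 4.35% of the pool with MMS and 20.7% without it when ribosomal RNA genes were included, and 3.41% and 16.7% of estimated counts. Limits of 20 and 2 TPM gave 9 genes switched on and 4 off. At least 4-fold changes gave 53.0% of promoters with the stress response element among rises, and 44.6% with PAC and 59.2% with RRPE among falls. With 3 libraries a group, exact tests of single values cannot go below p = 0.1.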
